A study of Mus musculus with 16 samples.

Results

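Mouse myoblasts held for 3 days in differentiation medium were compared with bulk growing myoblasts, gene by gene, across the whole transcriptome. The comparison used 6 of the 16 libraries of the series, 3 of each kind, and the members of each group were taken from the sample labels. All cultures were primary myoblasts from skeletal muscle of Pax7-nGFP mice, which carry a nuclear green fluorescent protein reporter of Pax7, and the parental lines came from 16 week old male animals. The growing myoblasts were at passage 3 in a 1:1 mixture of DMEM and F10 with 20% fetal bovine serum, 10% horse serum and 10 ng/ml bFGF. The differentiated cultures were at passage 4 to 5 and had spent 3 days in DMEM with 2% horse serum. Both media also held 1% penicillin and streptomycin. The medium, the withdrawal of bFGF and the passage number therefore changed together between the groups and cannot be told apart. The labels number the 3 libraries of each group as biological replicates, and neither group is described as sorted for GFP. The genes that define skeletal myogenic cells (Myod1, Myog, Des, Chrna1 and Myh3) were measured in all 6 libraries, with Chrna1, the alpha subunit of the muscle acetylcholine receptor, at 2004 to 2219 CPM (counts scaled to a normalized library of 1000000) in the growing and 2205 to 2887 CPM in the differentiated libraries.

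Satellite cells, the stem cells of skeletal muscle, are marked by the transcription factor Pax7, and their proliferating progeny, the myoblasts, express Myf5 and Myod1. When serum and growth factors are withdrawn, myoblasts leave the cell cycle, induce Myog and Mef2 factors, fuse through the membrane proteins Myomaker (Mymk) and Myomixer (Mymx), and build sarcomeres first with embryonic and neonatal and later with adult isoforms. The Id proteins hold this programme back by binding the E-protein partners of the myogenic factors.

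The growing libraries held about 19900000 to 29100000 and the differentiated libraries about 19600000 to 23300000 estimated counts, and 15533 genes had enough counts to be tested. At a Benjamini-Hochberg adjusted p under 0.05, 3976 genes (25.6%) were higher and 4441 genes (28.6%) were lower in the differentiated cultures, 54.2% in all, and the median log2 fold change over all tested genes was -0.03. A change of at least 2-fold was called for 1756 genes (11.3%) upwards and for 2472 genes (15.9%) downwards. The 3 differentiated libraries all lay above the 3 growing ones for 34.3% of genes and all below for 36.9%. The split of the calls depended on the scaling: with total counts in place of trimmed-mean normalization, 2711 genes were higher and 5805 lower, and the median of all genes was -0.25. In the differentiated libraries the 10 most abundant genes took 10.7% to 11.6% of the counts, against 7.09% to 7.72% in the growing ones. Because more than 1 in 4 genes passed in either direction, each group of genes below is read against these shares, and a lower level in bulk RNA may come from fewer cells of a type or from less RNA per cell, which cannot be told apart.

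**Figure D1:**
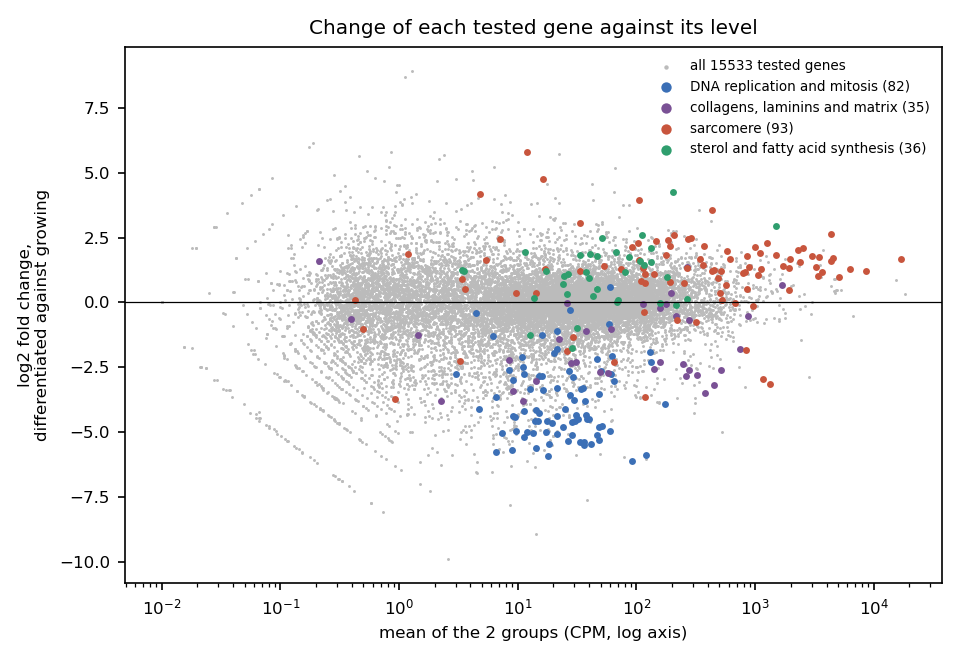
Log2 fold change of each of the 15533 tested genes (differentiated over growing, vertical axis) against its mean level in both groups in CPM (log axis), with grey points for all genes and colours for DNA replication and mitosis genes (blue), matrix genes (purple), sarcomere genes (red) and sterol and fatty acid synthesis genes (green). The blue points lie below 0 at every level apart from E2f2, and most red and green points lie above 0.

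Pax7, which marks muscle stem cells, stood at 546, 654 and 525 CPM in growing replicates 1 to 3 and at 25.3, 64.7 and 45.7 CPM in differentiated replicates 1 to 3. Every differentiated library lay far below every growing one, and the log2 fold change was -3.67 ± 0.37 (SE; adjusted p = 4.41e-06, edgeR quasi-likelihood test). Of 24 tested stem cell and progenitor genes, 3 rose and 17 fell, with a median log2 fold change of -1.59. The chemokine receptor Cxcr4 fell from 31.2, 43.0 and 27.6 CPM to 1.18, 3.02 and 1.51 CPM, and Vcam1 (-3.77), the hepatocyte growth factor receptor Met (-3.16) and the methyltransferase gene Ezh2 (-2.20) fell with it on the log2 scale. Chrdl2, a secreted BMP antagonist, had 30 counts over the growing libraries and 0 over the differentiated ones, at least 7.10-fold lower against a floor of 3 counts. Itga7, the laminin-binding integrin chain of muscle, went the other way, from 1037, 898 and 1074 CPM to 1615, 1881 and 1569 CPM (log2 fold change 0.75). Spry1, an antagonist of FGF signalling, also rose (1.16).

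Of the 4 myogenic regulatory factors, Myod1 and Myf5 fell, Myf6 rose and Myog did not pass the test. Myod1 stood at 673, 819 and 687 CPM in the growing and at 353, 330 and 297 CPM in the differentiated libraries, with no overlap and a log2 fold change of -1.15 ± 0.27 (SE; adjusted p = 0.00283, edgeR). Myf5 was lower as well, from a mean of 30.2 ± 4.45 CPM to 15.6 ± 2.48 CPM (SD, n = 3 each), without overlap (log2 fold change -0.95 ± 0.27 SE, adjusted p = 0.00973, edgeR). Myog was already high in the growing cultures: it stood at 1045, 963 and 1282 CPM in the growing libraries and at 973, 982 and 1028 CPM in the differentiated ones. These ranges overlapped, and the log2 difference was -0.14 ± 0.42 (SE; adjusted p = 0.794, edgeR). Myf6 (also Mrf4) rose from 20.6, 9.04 and 17.0 CPM to 39.4, 31.2 and 33.9 CPM (1.16, adjusted p = 0.0179, edgeR), a call that was lost without growing replicate 2 or differentiated replicate 1, where its adjusted p reached 0.0766.

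Among 27 tested myogenic transcription factors and partners, 8 rose and 8 fell (median log2 fold change -0.09), and 5 rose when differentiated replicate 1 was left out. Mef2c, which acts with the myogenic factors on muscle genes, stood at 603, 373 and 705 CPM in the growing and at 2062, 1797 and 1892 CPM in the differentiated libraries (log2 fold change 1.77 ± 0.27 SE, adjusted p = 0.000122, edgeR). Mef2d (1.31), Tead4 (1.47), which binds muscle promoters, and Nfix (1.36), a factor of the fetal programme, rose too. The E proteins Tcf3 (-1.52) and Tcf12 (-1.14), the dimer partners of the myogenic factors, fell, as did the homeobox gene Six4 (-0.60) and the cofactor gene Eya2 (-3.43).

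**Figure D2:**
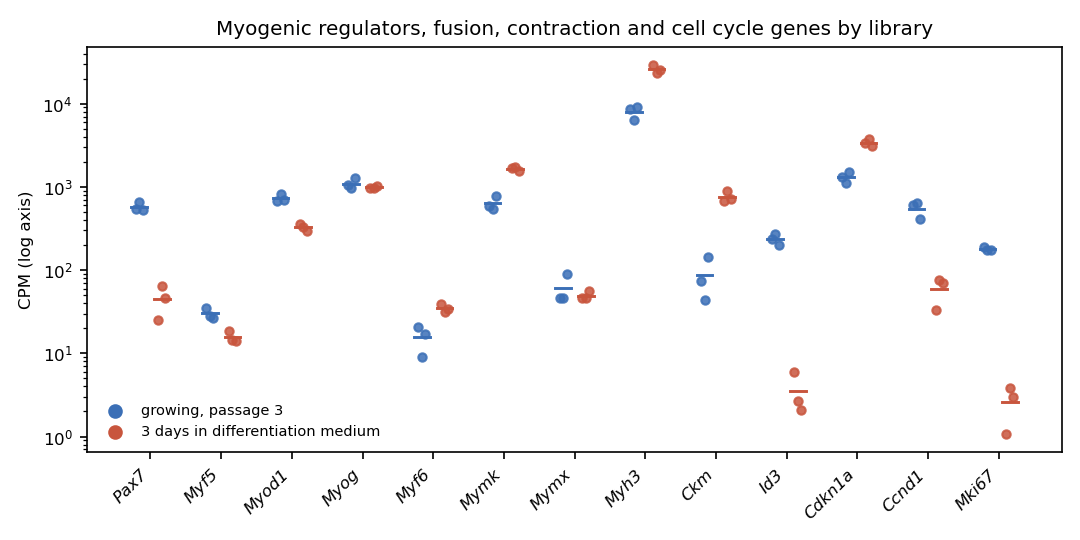
Level of 13 genes in CPM (log axis) in each of the 3 growing (blue) and 3 differentiated (red) libraries; points are libraries and bars are group means. Pax7, Id3, Ccnd1 and Mki67 lie lower in all 3 differentiated libraries and Mymk, Myh3, Ckm and Cdkn1a higher, whereas the 2 groups overlap for Myog and Mymx.

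The Id genes, whose products sequester E proteins, had some of the deepest falls. Id3 stood at 234, 274 and 201 CPM in the growing libraries and at 5.97, 2.68 and 2.07 CPM in the differentiated ones, a log2 fold change of -6.03 ± 0.40 (SE; adjusted p = 3.9e-07, edgeR), or -6.64 without differentiated replicate 1. Id1 fell from 95.0, 118 and 92.4 CPM to 9.01, 3.85 and 3.97 CPM and Id2 from 113, 138 and 96.8 CPM to 6.36, 8.10 and 5.64 CPM. Of 23 tested genes for inhibitors of the myogenic factors, 5 rose and 13 fell (median -1.17). The zinc finger repressor Snai2 (-3.33), the Notch target Hey1 (-2.49) and Mdfi (-1.85), a cytoplasmic inhibitor of myogenic factors, were among those that fell. Bhlhe40, a repressor of the bHLH family, rose from 18.1, 8.95 and 33.5 CPM to 99.8, 107 and 113 CPM (2.39 ± 0.46 SE), and the class IIa histone deacetylase gene Hdac9 rose by 1.65 on the log2 scale.

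The 2 fusogens of myoblasts did not move together. Mymk stood at 597, 538 and 772 CPM in the growing and at 1667, 1756 and 1558 CPM in the differentiated libraries, a log2 fold change of 1.38 ± 0.27 (SE; adjusted p = 0.000824, edgeR). Mymx stood at 46.4, 46.3 and 89.4 CPM and at 46.3, 45.6 and 55.8 CPM, so that the groups overlapped (-0.30 ± 0.44, adjusted p = 0.585, edgeR; 0.08 without growing replicate 3). Of 27 tested fusion genes, 7 rose and 8 fell (median -0.30), shares not far from those of all genes. The caveolin of muscle membranes Cav3 (1.74), Tmem182 (1.60) and the membrane repair gene Dysf (1.24) rose. Kirrel (-3.34), an immunoglobulin-family adhesion gene, Igsf3 (-1.83), the interleukin-4 receptor gene Il4ra (-1.66) and Dock1 (-1.42), an activator of Rac, fell.

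Genes of the contractile apparatus rose as a group and from a high starting level: the sarcomere lists together took 6.97%, 5.51% and 7.27% of all counts in the growing libraries and 14.7%, 13.6% and 13.5% in the differentiated ones. Several of the myosin heavy chain genes and of the actin genes are close to each other in sequence. The authors' estimated counts divide shared reads between such genes, so the values of single members are uncertain. Of 13 tested myosin heavy chain genes, 8 rose and 1 fell (median log2 fold change 1.28). Embryonic Myh3 was the most abundant in both groups, at 8675, 6344 and 9097 CPM and at 28820, 23080 and 25380 CPM (1.68 ± 0.29 SE, adjusted p = 0.000326, edgeR). Per length, it rose from a mean of 2517 to 7175 TPM, the authors' length-scaled unit. The neonatal Myh8 rose from 1242, 582 and 1787 CPM to 8326, 7662 and 6387 CPM (2.63 ± 0.43 SE).

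Among the adult fast isoforms, Myh4 and Myh2 started low. Myh4, the IIB chain, stood at 66.9, 19.1 and 117 CPM in the growing and at 783, 1107 and 500 CPM in the differentiated libraries (3.56 ± 0.71 SE). Myh2, the IIA chain, stood at 20.0, 4.90 and 13.2 CPM and at 83.0, 125 and 387 CPM (3.95 ± 0.64 SE), with differentiated replicate 3 well above the other differentiated libraries. Without that library Myh2 rose by 3.03, and without growing replicate 3 Myh4 rose by 4.20 on the log2 scale. Myh1, the IIX chain, rose by 1.30 and Myh7, the slow chain, by 1.13 on the log2 scale. The 1 myosin heavy chain gene that fell was Myh9, the non-muscle chain, from 1361, 1436 and 1102 CPM to 334, 417 and 357 CPM (-1.82 ± 0.17 SE), and Myh6, Myh10, Myh11 and Myh14 did not pass the test; 2 members fell without differentiated replicate 3. Myl2, the slow and cardiac regulatory light chain, had the largest fitted rise among protein-coding genes that averaged 10 CPM or more after differentiation, from 0.300, 0.238 and 0.711 CPM to 15.9, 20.6 and 34.6 CPM (5.79 ± 0.47 SE, adjusted p = 9.95e-07, edgeR), or by 6.41 without growing replicate 3. Of 12 tested light chain genes, 7 rose, among them Myl1 (1.74), Myl4 (1.79) and Mylpf (1.58), and 3 fell, namely Myl9 (-2.31), Myl12b (-1.34) and Myl6 (-0.75), which serve smooth muscle and non-muscle myosins.

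The thin filament showed the same division between muscle and non-muscle members. Acta1, skeletal alpha-actin, rose from 5436, 4298 and 5787 CPM to 12280, 11900 and 11790 CPM (log2 fold change 1.21 ± 0.27 SE, adjusted p = 0.00198, edgeR). Actb, cytoplasmic beta-actin, fell from 2118, 2304 and 1749 CPM to 194, 340 and 274 CPM (-2.93 ± 0.23 SE), and cytoplasmic gamma-actin Actg1 fell by 3.14 on the log2 scale. Of 27 tested thin filament genes, 15 rose and 7 fell (median 0.99). The 3 fast troponin genes rose: Tnnc2 by 2.29, Tnni2 by 2.17 and Tnnt3 by 1.69. Tmod1 (2.48), a pointed-end cap of muscle filaments, rose, whereas Tmod2 (-2.26), Tmod3 (-1.89) and the tropomyosin gene Tpm4 (-3.63) fell.

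Of 41 tested genes of the Z-disc, the M-band and sarcomere assembly, 37 rose and 0 fell (median log2 fold change 1.42), and 40 had all 3 differentiated libraries above all 3 growing ones. The fast myosin-binding protein gene Mybpc2 stood at 0.866, 0.428 and 2.10 CPM in the growing and at 26.1, 36.2 and 32.5 CPM in the differentiated libraries (4.76 ± 0.53 SE). Myoz3 (4.19), which binds calcineurin at the Z-disc, the giant protein gene Ttn (1.71), Actn2 (2.08), the alpha-actinin of the Z-disc, and the intermediate filament gene Des (1.16) rose. Without growing replicate 3, Mybpc2 rose by 5.54. Smyd1, Trim54, Trim55 and Ankrd2 did not pass the test. Growing replicate 2 was the lowest of its group for 40 of these 41 genes and for 11 of the 13 myosin heavy chain genes, by a median of 0.58 and 0.96 on the log2 scale.

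**Figure D3:**
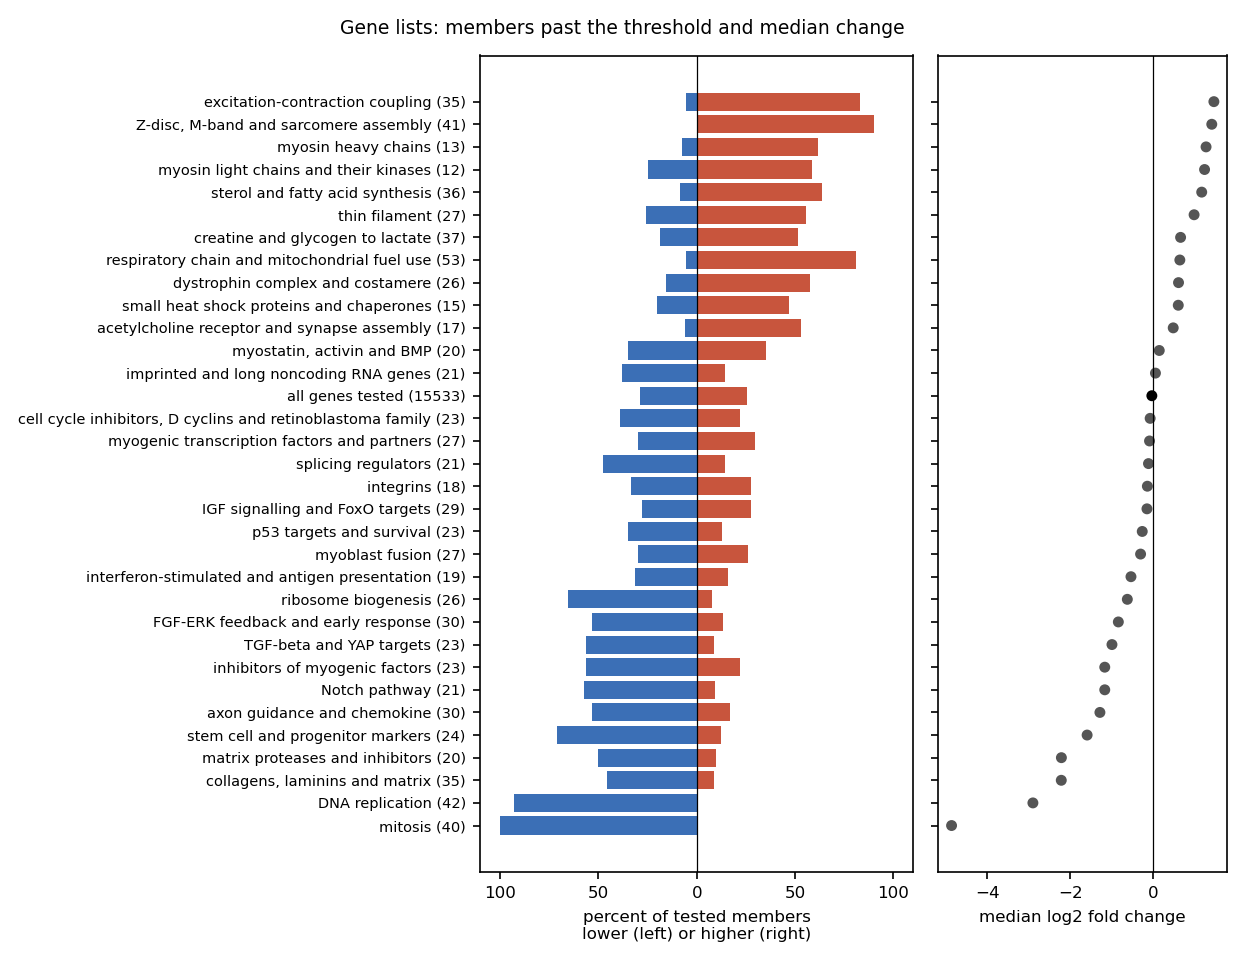
Share of the tested members of each gene list called higher (bars to the right) or lower (bars to the left) in the differentiated cultures, in percent, with dots for the list's median log2 fold change and the number of tested genes in brackets; the row for all genes gives the background of 25.6% higher and 28.6% lower. Z-disc, excitation-contraction coupling and respiratory genes lie at the top and DNA replication and mitosis genes at the bottom.

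Of 35 tested genes for excitation-contraction coupling, 29 rose (median log2 fold change 1.47). Ryr1, the calcium release channel of the sarcoplasmic reticulum, stood at 997, 749 and 1114 CPM in the growing and at 3542, 2750 and 2754 CPM in the differentiated libraries (1.66), and Cacna1s, the voltage sensor of the T-tubule, at 456, 317 and 504 CPM and at 1424, 1165 and 1091 CPM (1.53). The calcium pump Atp2a2 rose from 878, 781 and 908 CPM to 2745, 2845 and 2569 CPM (1.67), and its fast-fibre relative Atp2a1 by 2.00. For Ryr1, Cacna1s and Atp2a2 every differentiated library lay above every growing one. The calcium buffer Pvalb (4.15), the chloride channel Clcn1 (2.84) and the pump regulator Sln (2.07) rose as well, and 2 members fell, Fkbp1a (-0.55) and Asph (-0.37, adjusted p = 0.0459, edgeR). Only 1 member fell when any 1 library other than growing replicate 3 was left out, and Asph had a positive log2 difference of 0.17 when counts were scaled for transcript length.

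Of 17 tested receptor and scaffold genes of the neuromuscular synapse, 9 rose and 1 fell (median 0.49). Chrng, the fetal gamma subunit of the acetylcholine receptor, rose from 525, 491 and 586 CPM to 995, 979 and 743 CPM (0.76 ± 0.24 SE, adjusted p = 0.0172, edgeR). This call was lost without growing replicate 2, differentiated replicate 1 or differentiated replicate 2, where the difference was 0.69 to 0.70, and with total-count scaling (0.54). The adult epsilon subunit Chrne stayed far below it, at 1.60, 0.381 and 2.17 CPM and at 5.92, 10.7 and 4.80 CPM (2.33). Acetylcholinesterase (Ache, 1.81) and its collagen tail (Colq, 2.50) rose, and agrin (Agrn, -1.63), the signal that clusters receptors, fell. Of 26 tested genes of the dystrophin complex and membrane repair, 15 rose and 4 fell (median 0.61). Dmd, dystrophin, rose from 107, 59.4 and 105 CPM to 343, 222 and 269 CPM (1.62), with Dag1 (1.65) and the delta-sarcoglycan gene Sgcd (2.52), whereas Dtnb (-1.51), Sgce (-1.29) and Sntb2 (-0.98) fell.

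In energy metabolism, the muscle isoforms of several enzymes rose. Ckm, muscle creatine kinase, stood at 74.0, 44.2 and 146 CPM in the growing and at 682, 901 and 712 CPM in the differentiated libraries, a log2 fold change of 3.12 ± 0.47 (SE; adjusted p = 0.000123, edgeR). Of 37 tested genes from creatine and glycogen to lactate, 19 rose and 7 fell (median 0.66). The glycogen phosphorylase of muscle, Pygm, rose from 396, 291 and 471 CPM to 1796, 1836 and 1375 CPM (2.11), and the phosphofructokinase gene of muscle Pfkm rose by 1.95 while those of liver (Pfkl, -1.14) and platelets (Pfkp, -1.01) fell. Phosphoglycerate mutase divided likewise, with Pgam2 of muscle at 1.39 (1.18, adjusted p = 0.0584 in edgeR, without growing replicate 2) and the ubiquitous Pgam1 at -1.89. The insulin-responsive glucose transporter gene Slc2a4 rose by 2.51.

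Because Ckm is a classic target of the myogenic factors, the 250 bases before its start are shown from RefSeq (GRCm38.p6, chr7:19410844-19411093, plus strand, 5′ to 3′), with matches in capitals to the E-boxes CAGCTG and CACCTG and to a MEF2-like motif on either strand. These were found in 13%, 17.2% and 3.2% of all 32851 RefSeq windows of this length.
Ckm: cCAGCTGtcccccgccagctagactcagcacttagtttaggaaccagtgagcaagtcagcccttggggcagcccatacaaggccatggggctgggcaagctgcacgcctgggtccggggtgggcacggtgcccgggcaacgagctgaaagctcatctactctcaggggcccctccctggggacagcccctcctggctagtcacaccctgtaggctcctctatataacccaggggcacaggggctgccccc
One E-box was found, 249 bases before the start. The same window of Chrng held CAGCTG 155 and 132 bases before its start, and those of Myog and Myh3 held no match to these patterns. Other forms of E-box or MEF2 site were not searched, so the lack of a match does not mean that such sites are absent. A match is a description of the letters and was not tested as a binding site.

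Of 53 tested respiratory and fatty acid oxidation genes, 43 rose and 3 fell (median log2 fold change 0.65). The muscle isoform Cox7a1 of cytochrome oxidase stood at 1.46, 0.952 and 2.28 CPM in the growing and at 15.5, 18.8 and 14.2 CPM in the differentiated libraries (3.35), and Cox6a2 (1.92) and Cox8b (2.01), also muscle isoforms, rose. Their ubiquitous counterparts Cox6a1 and Cox8a fell, by 0.61 and 0.50 on the log2 scale, Cox6a1 from 90.5, 104 and 101 CPM to 66.5, 64.9 and 62.9 CPM. Myoglobin (Mb, 1.75) and the fatty acid carrier Fabp3 (1.55) rose, and the mitochondrially encoded mt-Co1 rose from 10760, 9683 and 12250 CPM to 19200, 20680 and 19980 CPM (0.87). Ppargc1a and Tfam, regulators of mitochondrial biogenesis, did not pass the test.

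Sterol and fatty acid synthesis rose in the differentiated cultures, with 23 of 36 tested genes higher and 3 lower (median log2 fold change 1.17). Scd1, stearoyl-CoA desaturase, stood at 19.2, 22.1 and 19.6 CPM in the growing and at 345, 490 and 334 CPM in the differentiated libraries (4.26 ± 0.36 SE, adjusted p = 1.2e-06, edgeR). Scd2 rose from 321, 286 and 436 CPM to 2645, 2915 and 2469 CPM (2.94). Dhcr7 (2.59), the last step of cholesterol synthesis, Fdps (2.10), Idi1 (1.96) and the acetyl-CoA synthetase gene Acss2 (2.46) rose together with them. The elongases Elovl5 (-1.77) and Elovl6 (-1.27) and the desaturase Fads1 (-0.99) were the 3 that fell.

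Among the lists examined, the cell cycle genes changed most uniformly. Of 40 tested mitosis genes, 0 rose and 40 fell, with a median log2 fold change of -4.87, and of 42 tested DNA replication genes 0 rose and 39 fell, with a median of -2.90. Both lists together took 0.501%, 0.536% and 0.45% of the counts in the growing libraries and 0.0468%, 0.0528% and 0.0508% in the differentiated ones. The proliferation marker Mki67 stood at 191, 172 and 175 CPM and at 1.08, 3.80 and 3.02 CPM (-6.11, adjusted p = 1.01e-06, edgeR). The mitotic kinase gene Cdk1 stood at 71.0, 80.1 and 67.8 CPM and at 1.52, 4.47 and 3.91 CPM (-4.48 ± 0.37 SE, adjusted p = 1.13e-06, edgeR), and its partner Ccnb1 fell by 5.46 on the log2 scale. The replicative helicase subunit gene Mcm5 stood at 57.2, 64.9 and 45.4 CPM and at 4.21, 4.08 and 4.19 CPM (-3.74 ± 0.31 SE, adjusted p = 1.16e-06, edgeR).

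Mcm6 (-4.81), of the same helicase, and Tk1 (-4.98), thymidine kinase, fell too. Gins3 (-0.40, adjusted p = 0.119, edgeR), Cdc25a (-0.28, adjusted p = 0.117, edgeR) and E2f2 (0.59, adjusted p = 0.183, edgeR) were the 3 replication genes that did not pass, and 1 replication gene rose when growing replicate 3 was left out. Differentiated replicate 1 was the lowest of its group for 36 of the 40 mitosis genes, by a median of 0.73 on the log2 scale, and for 23 of the 42 replication genes.

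The windows of Cdk1 and Mcm5 are shown because promoters of these classes are known for CCAAT boxes bound by NF-Y, the cell cycle homology region (TTTGAA) of late genes and the E2F site (TTTGGCGC) of early ones. They are the 250 bases before each start in RefSeq (GRCm38.p6, 5′ to 3′), at chr10:69352913-69353162 on the minus strand for Cdk1 and chr8:75109259-75109508 on the plus strand for Mcm5, with matches on either strand in capitals.
Cdk1: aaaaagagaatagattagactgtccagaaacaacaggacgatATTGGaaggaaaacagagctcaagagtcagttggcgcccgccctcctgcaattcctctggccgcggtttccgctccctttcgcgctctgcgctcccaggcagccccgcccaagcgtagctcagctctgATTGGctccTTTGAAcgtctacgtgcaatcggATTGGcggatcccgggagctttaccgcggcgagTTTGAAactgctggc
Mcm5: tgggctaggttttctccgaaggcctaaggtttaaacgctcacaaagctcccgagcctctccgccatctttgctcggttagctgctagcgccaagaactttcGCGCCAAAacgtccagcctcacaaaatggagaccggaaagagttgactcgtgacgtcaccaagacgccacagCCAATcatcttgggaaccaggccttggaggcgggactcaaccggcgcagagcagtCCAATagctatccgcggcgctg
The Cdk1 window held CCAAT 208, 80 and 48 bases and TTTGAA 71 and 15 bases before the start, and the Mcm5 window held CCAAT 77 and 22 bases and TTTGGCGC 149 bases before it. The window of Ccnb1 held CCAAT 99 and 67 bases before its start and neither of the others. Of all 32851 RefSeq windows of this length, 33.8% held CCAAT, 16% TTTGAA and 0.417% TTTGGCGC.

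Among 23 tested genes for cell cycle inhibitors, D cyclins and the retinoblastoma family, 5 rose and 9 fell (median -0.07), and 3 rose when growing replicate 2 was left out. Cdkn1a, the p21 inhibitor, was already abundant in the growing libraries at 1307, 1111 and 1490 CPM and rose to 3406, 3714 and 3103 CPM (log2 fold change 1.39 ± 0.23 SE, adjusted p = 0.000216, edgeR). Ccnd1, cyclin D1, fell from 600, 638 and 406 CPM to 33.2, 77.0 and 69.7 CPM (-3.19), with its kinases Cdk6 (-2.97) and Cdk4 (-1.84). Of the pocket protein genes, Rbl2 (0.74) rose and Rbl1 (-2.05) fell. Of 23 tested p53 target and cell survival genes, 3 rose and 8 fell (median -0.26), with Sesn1 (1.92) and Eda2r (0.94) up and Bax (-1.01) and Sesn2 (-1.33) down.

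Genes known to respond to growth factors were examined next. Of 30 tested genes of the FGF and ERK pathway, 4 rose and 16 fell (median -0.84). The AP-1 subunit gene Fosl1 (-4.39), the phosphatase gene Dusp5 (-2.89) and the transcription factor gene Etv4 (-2.82) were lower, and Fos (1.47) was higher. Of 23 tested TGF-beta and YAP targets, 2 rose and 13 fell (median -0.99). Tagln (-3.29), an actin-binding protein of smooth muscle, and Thbs1 (-2.19) fell, and Pmepa1 (1.73) and Tgfb3 (1.24) rose.

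In the myostatin, activin and BMP list, 7 of 20 tested genes rose and 7 fell (median 0.15), and 3 fell when differentiated replicate 1 was left out. The median was -0.07 with total-count scaling and -0.01 without growing replicate 2. The antagonist Fst, follistatin, stood at 47.1, 45.9 and 64.6 CPM in the growing and at 403, 259 and 356 CPM in the differentiated libraries (2.69 ± 0.23 SE, adjusted p = 1.37e-06, edgeR), and Fstl3 (2.11) rose too. Mstn, myostatin, which limits muscle growth, fell from 51.7, 39.0 and 43.0 CPM to 21.3, 8.99 and 11.3 CPM (-1.68 ± 0.38 SE, adjusted p = 0.0023, edgeR). The antagonist and the ligand thus moved in opposite directions. The follistatin-like gene Fstl1 (-3.59) fell.

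Of 21 tested Notch pathway genes, 2 rose and 12 fell (median -1.17), and the 2 that rose, Numb and Rfng, did not pass with total-count scaling. Receptor Notch3 fell from 161, 173 and 207 CPM to 8.37, 22.8 and 14.2 CPM (-3.58), the glycosyltransferase gene Lfng by 4.24, the ligand gene Dll1 by 1.56 and the effector gene Rbpj by 1.45 on the log2 scale. Of 29 tested IGF, insulin and FoxO genes, 8 rose and 8 fell (median -0.15). The binding protein genes Igfbp4 (-3.74) and Igfbp2 (-2.82) fell and Klf15 (2.47, or 3.17 without growing replicate 3), a glucocorticoid responsive factor, rose.

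Matrix genes were lower on the whole, with a wide spread between libraries. Of 35 tested collagens, laminins and other matrix genes, 3 rose and 16 fell (median -2.22), and this median was -1.34 without growing replicate 3 and -1.68 without differentiated replicate 1. Col3a1, fibrillar collagen III, stood at 632, 735 and 707 CPM in the growing and at 28.1, 88.7 and 69.2 CPM in the differentiated libraries (-3.48 ± 0.68 SE, adjusted p = 0.000804, edgeR). Col1a1 stood at 7.49, 21.7 and 112 CPM in growing replicates 1 to 3 and at 0.0489, 1.90 and 26.3 CPM in differentiated replicates 1 to 3. Each differentiated library lay below the growing library of the same number, but the groups overlapped. The log2 difference of -2.33 did not pass in the fit, which did not pair libraries by number (adjusted p = 0.244, edgeR). Fibronectin, Fn1, fell from 1227, 1140 and 1116 CPM to 162, 397 and 452 CPM (-1.78). Basement membrane genes divided: Col4a1 (-3.18) fell and Lamb2 (1.38) and Hspg2 (0.68) rose.

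Of 20 tested matrix proteases and inhibitors, 2 rose (1 without growing replicate 2) and 10 fell (median -2.22), with Mmp2 (-4.03), the plasminogen activator gene Plat (-3.49) and the nexin gene Serpine2 (-3.20) lower. Among 18 tested integrin genes and partners, 5 rose and 6 fell (median -0.14). Only 3 fell without growing replicate 1, and the median was 0.02 without growing replicate 3 and 0.03 without differentiated replicate 2. Itga9 rose from 9.02, 7.04 and 16.1 CPM to 170, 121 and 142 CPM (3.74 ± 0.41 SE), while Itgb4 (-3.58), Itga6 (-1.98) and Itga4 (-1.52) fell. Of 30 tested axon guidance and chemokine genes, 5 rose and 16 fell (median -1.28), and 3 rose without any 1 of the growing libraries or without differentiated replicate 1. The chemokine Cxcl12, the ligand of Cxcr4, fell from 101, 139 and 53.5 CPM to 0.979, 1.79 and 2.46 CPM (-5.82). The receptor gene Robo1 fell by 3.81 and the ephrin gene Efna5 by 3.23, whereas the semaphorin genes Sema3f (2.96) and Sema3c (1.80) rose.

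Of 26 tested genes of ribosome biogenesis, 2 rose and 17 fell (median -0.62), including nucleophosmin Npm1 (-1.69), Fbl (-1.22) and Ncl (-1.12). Of 21 tested splicing regulators, 3 rose and 10 fell (median -0.11). Ptbp1, a repressor of muscle and neuronal exons, fell from 185, 195 and 165 CPM to 44.4, 50.3 and 54.5 CPM (-1.87), with Ptbp3 (-2.00) and Hnrnpa1 (-2.11), while Rbm38 (1.47), Rbfox1 (1.11) and the muscle kinase gene Srpk3 (0.86) rose. Of 15 tested small heat shock proteins and chaperones, 7 rose and 3 fell (median 0.61), and the muscle-enriched Hspb7 (2.22), Hspb2 (1.43), Hspb6 (1.31) and Hspb3 (1.27) rose while Hsp90aa1 (-1.35) and Dnajb1 (-1.21) fell.

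Of 19 tested interferon-stimulated and antigen presentation genes, 3 rose and 6 fell (median -0.54). Without differentiated replicate 1 these counts were 1 and 3, and 1 rose without growing replicate 1 or 2. The class I gene H2-K1 (2.29) rose and the peptide transporter gene Tap1 (-2.44) fell.

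Of 21 tested imprinted and long noncoding genes, 3 rose and 8 fell. The median was 0.06, but -0.17 with total-count scaling, -0.01 without a filter on low counts, -0.02 without growing replicate 2 and -0.60 without differentiated replicate 3. Mest fell from 845, 865 and 1380 CPM to 18.1, 35.8 and 44.6 CPM (-4.97), and Nnat had 395 counts over the growing libraries and 0 over the differentiated ones, at least 93.5-fold lower against a floor of 3 counts. Plagl1 (-3.68), a zinc finger gene of the imprinted network, fell, and the 3 that rose were Peg10 (1.36), Neat1 (1.12) and Malat1 (1.04).

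Ranked over the protein-coding genes that averaged 10 CPM or more in whichever group was higher, the largest fitted rises after Myl2 included Cilp (5.70), a cartilage matrix gene, from 0.999, 0.428 and 1.03 CPM to 27.0, 27.2 and 77.5 CPM, or 5.02 without differentiated replicate 3. Ptgds (5.21), prostaglandin D synthase, and Wif1 (3.99), a secreted Wnt inhibitor, were among the others, at 5.87 and 4.65 without growing replicate 3. Axin2 (3.82), a target of Wnt signalling, rose from 1.56, 1.05 and 3.09 CPM to 25.8, 23.4 and 32.4 CPM, with no overlap. Among the largest falls, Selp, P-selectin, had 2072 counts over the growing and 3 over the differentiated libraries, a ratio of 491 with a 95% counting interval of 168 to 2381. Cthrc1 (-7.79, or -7.10 without growing replicate 2), a secreted collagen-associated protein gene, and Sct (-7.59), secretin, at 77.1, 118 and 33.8 CPM against 0.440, 0.447 and 0.279 CPM, came next. Melk, Pbk, Depdc1a, Bub1, Top2a, Pclaf and Dlgap5, all known as proliferation genes, were also among the largest falls.

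By share of reads, mt-Co1, Myh3, Acta1, Myh1 and Myh8 were the 5 highest genes in the differentiated cultures. In the growing cultures the elongation factor gene Eef1a1 and Spp1, osteopontin, stood among the 5 highest. Eef1a1 fell from 8049, 8362 and 7444 CPM to 5543, 5482 and 5542 CPM (-0.53). Spp1 fell from 4834, 6197 and 4107 CPM to 342, 946 and 779 CPM (-2.87 ± 0.70 SE).

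Markers of other cell types were low or shared with muscle cells. Fibroblast and fibro-adipogenic markers summed to 134 to 156 CPM in the growing and 173 to 211 CPM in the differentiated libraries, mostly from Gsn, and 0 of 8 tested rose and 4 fell. Endothelial markers summed to 1.67 to 3.24 CPM and 1.73 to 2.35 CPM, macrophage markers to 4.83 to 6.73 CPM and 9.79 to 11.2 CPM, and tenocyte markers to 45.6 to 65.8 CPM and 72.8 to 82.4 CPM. Only 2 of the 8 macrophage and leukocyte markers had enough counts to be tested, and they moved apart. Itgam rose from a mean of 2.89 to 9.36 CPM (1.69), and Cd68 fell from 2.06 to 0.58 CPM (-1.83). Schwann cell markers summed to 162 to 293 CPM and 510 to 550 CPM, nearly all from Erbb3, which muscle also expresses. The defining Sox10, S100b and Cdh19 each had 3 counts or fewer over the growing and differentiated libraries together. The pericyte list, at 3278 to 3929 CPM and 5972 to 6716 CPM, was mostly Des and Acta2, and its members moved both ways. Of 8 tested, 2 rose and 2 fell. Rgs5 fell from 131, 219 and 113 CPM to 1.13, 5.53 and 1.01 CPM (-5.93, or -7.17 without differentiated replicate 2), and Pdgfrb fell too (-2.72). Abcc9 rose from 91.0, 59.4 and 94.4 CPM to 268, 224 and 186 CPM (1.47), as did Des (1.16), while Cspg4 (1.22) did not pass. Adipocyte markers summed to 26.7 to 27.7 CPM and 11.6 to 11.9 CPM, with Adipoq and Cidec at 3 counts or fewer. The part of these cells in the results above was not tested.

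Transcript usage, the share of a gene's counts that each of its transcripts takes, was compared for 7275 genes with at least 50 counts in every library. The shares rest on the authors' estimated counts, and the deposited data give no measure of the error in assigning reads to transcripts. Usage differed at the gene level for 632 genes (8.69%), and 192 genes (2.64%) also had a transcript whose share moved by at least 20 percentage points. Of those 192 genes, 54 also rose and 70 fell in total level, and 68 passed in neither direction. A list of 56 genes known for isoform switches in muscle had 53 testable members, of which 7 were called (Tpm3, Tpm1, Slc25a3, Atp2a2, Camk2d, Pdlim5 and Pdlim7).

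In Tpm3, whose muscle and cytoskeletal tropomyosins are made from different first exons and alternative internal exons, Tpm3-201 took 54.6%, 66.7% and 44.0% of counts in the growing and 5.82%, 8.20% and 8.86% in the differentiated libraries (adjusted p = 2.55e-12, limma diffSplice). Tpm3-205 took 5.39%, 1.58% and 6.23% and then 52.4%, 41.8% and 36.8% (adjusted p = 6.32e-12, limma diffSplice). The groups did not overlap for either transcript. The total level of Tpm3 fell by 0.66 on the log2 scale, and by 0.10 (adjusted p = 0.577, edgeR, not passing) when counts were scaled for transcript length. Tpm3-205 has 852 and Tpm3-201 has 744 coding bases, and they use alternative internal exons of 76 bases on the plus strand, shown 5′ to 3′ from GENCODE M21 (GRCm38), at chr3:90089048-90089123 and chr3:90088401-90088476. Capitals mark the exon and lower case the 12 shared coding bases on each side.
Tpm3-205: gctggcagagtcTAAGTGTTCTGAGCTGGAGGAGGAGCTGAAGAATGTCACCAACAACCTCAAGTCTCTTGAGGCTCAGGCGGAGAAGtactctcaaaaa
Tpm3-201: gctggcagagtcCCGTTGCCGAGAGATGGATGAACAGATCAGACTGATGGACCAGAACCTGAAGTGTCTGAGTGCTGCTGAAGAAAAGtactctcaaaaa
The exons have the same length and differ at 37 of 76 bases.

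Slc25a3, the phosphate carrier of the inner mitochondrial membrane, has a pair of mutually exclusive exons, of which 1 is used in heart and skeletal muscle. Slc25a3-206 took 49.1%, 46.8% and 54.7% of counts in the growing and 84.8%, 82.0% and 85.9% in the differentiated libraries (adjusted p = 1.25e-08, limma diffSplice). Slc25a3-201 took 24.4%, 28.9% and 22.3% and then 8.07%, 9.29% and 8.24% (adjusted p = 0.0233, limma diffSplice). These exons, number 3 of each transcript, lie on the minus strand at chr10:91122207-91122331 (125 bases) and chr10:91121922-91122043 (122 bases) of GRCm38 and are shown in the same way.
Slc25a3-206: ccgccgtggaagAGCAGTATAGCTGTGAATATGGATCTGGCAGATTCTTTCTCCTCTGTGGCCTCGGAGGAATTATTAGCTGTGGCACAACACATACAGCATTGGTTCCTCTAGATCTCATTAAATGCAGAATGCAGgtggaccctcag
Slc25a3-201: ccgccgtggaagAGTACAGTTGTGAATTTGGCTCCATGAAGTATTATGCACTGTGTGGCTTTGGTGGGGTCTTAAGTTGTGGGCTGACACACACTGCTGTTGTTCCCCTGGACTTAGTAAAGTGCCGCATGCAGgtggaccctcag
The coding bases printed on each side are identical, and the whole coding sequences are 1074 and 1071 bases long.

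Anxa7, a calcium-dependent membrane-binding annexin, has a form with an additional exon known from muscle and brain. Anxa7-202, which holds it, took 41.9%, 38.5% and 47.6% of counts in the growing and 88.7%, 81.8% and 86.9% in the differentiated libraries (adjusted p = 5.3e-07, limma diffSplice), and Anxa7-207, which lacks it, took 51.2%, 53.1% and 43.7% and then 4.80%, 10.9% and 4.04%. The 66-base exon, the sixth of 14, lies on the minus strand at chr14:20467458-20467523 of GRCm38.
Anxa7-202: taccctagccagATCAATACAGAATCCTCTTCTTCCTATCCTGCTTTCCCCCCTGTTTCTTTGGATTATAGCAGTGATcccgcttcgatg
Camk2d, a calcium/calmodulin-dependent kinase, gained the share of Camk2d-206, from 9.61%, 6.54% and 15.8% to 47.5%, 40.2% and 28.9% (adjusted p = 6.54e-05, limma diffSplice). The change was 18.7 points, under the limit of 20, when shares were taken from TPM. Its 60-base exon at chr3:126805857-126805916 (plus strand, GRCm38, the 14th of 20) is shown because Camk2d-202, another transcript of the gene, lacks it. Further transcripts of Camk2d were not compared.
Camk2d-206: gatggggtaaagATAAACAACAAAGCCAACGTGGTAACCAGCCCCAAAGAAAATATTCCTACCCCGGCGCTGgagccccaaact

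Among the other genes, Pdlim5-203, from a Z-disc scaffold gene, took 33.3%, 20.4% and 31.4% of counts in the growing and 72.6%, 72.2% and 69.7% in the differentiated libraries (adjusted p = 2.29e-07, limma diffSplice). Atp2a2-202, of the calcium pump gene, took 73.0%, 64.4% and 73.7% and then 93.1%, 91.9% and 91.7%. Its change of 21.9 points was 18.9 without growing replicate 2 and 19.3 with shares of TPM. Tpm1-205 rose by 20.4 points, by 18.2 without growing replicate 2, by 19.9 without differentiated replicate 1 and by 14.7 with shares of TPM. Mad1l1, a spindle checkpoint gene, had the same mean level of 48.0 CPM in both groups, but Mad1l1-201 fell from 97.0%, 99.5% and 93.1% to 13.2%, 19.4% and 25.6% of its counts. Noncoding forms, Mad1l1-206 and Mad1l1-202, took 42.9% and 37.5% on average in the differentiated libraries. In Sytl2, a retained intron form, Sytl2-216, rose from 6.18%, 3.39% and 12.9% to 69.3%, 63.4% and 56.2%.

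**Figure D4:**
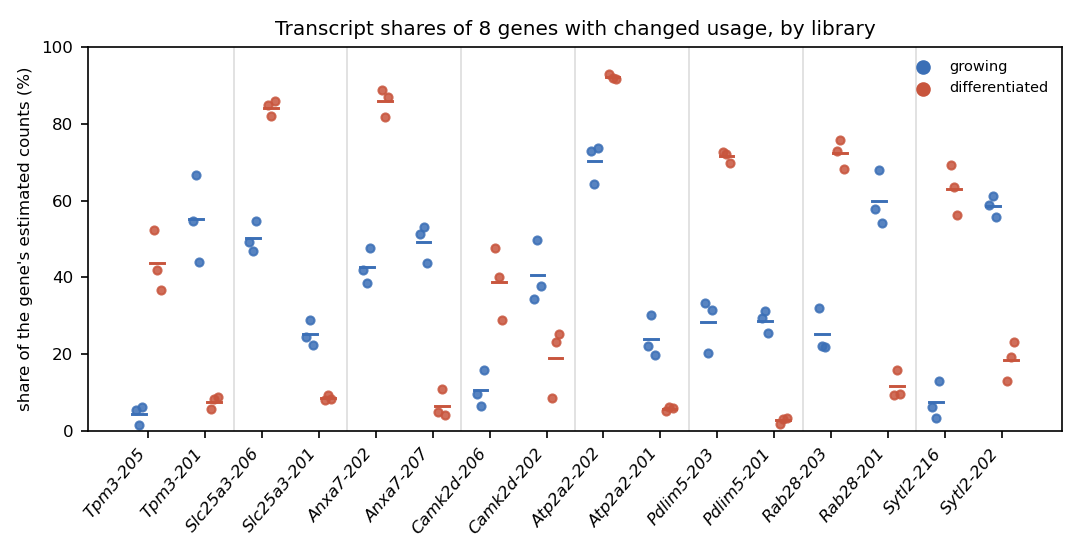
Share of each gene's estimated counts (percent) taken by 16 transcripts of 8 genes in each of the 3 growing (blue) and 3 differentiated (red) libraries; points are libraries and bars are group means. For Tpm3, Slc25a3, Anxa7, Pdlim5 and Rab28 the 2 transcripts shown trade places or diverge, with no overlap between the groups.

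The series also holds sorted GFP+ myoblasts at passage 5 to 6 and bulk MPC, cells kept for 5 to 6 passages in medium with 5 µM forskolin, 5 µM RepSox and 3 µM CHIR9901 (3 libraries each; the labels do not spell out MPC). Both were set against the same 3 differentiated libraries as above, so the comparisons share samples and their values are given side by side only. Against GFP+ myoblasts, 5391 genes (34.7%) were higher and 5341 (34.4%) lower in the differentiated cultures, 69.1% in all. Against bulk MPC 3019 (19.4%) were higher and 3793 (24.4%) lower, 43.9% in all. With total-count scaling these splits were 4035 and 6873 against GFP+ myoblasts and 3972 and 2824 against bulk MPC. Passage differed here as well, and the GFP+ myoblasts were extracted with another RNA kit. The media also differed. GFP+ myoblasts were kept in 20% fetal bovine serum, 10% horse serum and 10 ng/ml bFGF. Bulk MPC were kept in 10% fetal bovine serum and 10 ng/ml bFGF, without horse serum. The differentiated cultures had 2% horse serum and neither fetal bovine serum nor bFGF. Serum, bFGF, the added compounds and passage therefore cannot be told apart in these comparisons.

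The 9 sarcomeric myosin heavy chain genes, those of the list other than Myh9, Myh10, Myh11 and Myh14, summed to 113.8, 94.12 and 157.4 CPM in GFP+ myoblasts and to 14900, 9966 and 15610 CPM in growing myoblasts. In differentiated cultures they summed to 50800, 41990 and 40230 CPM and in bulk MPC to 64450, 46260 and 61910 CPM. The GFP+ libraries lay far below all others, and the differentiated and bulk MPC libraries overlapped in this sum, though single members differed. Against bulk MPC, 2 of the 13 listed genes were higher in the differentiated cultures, Myh7 (3.18) and Myh2 (2.57). Lower were 3, namely Myh4 (-2.71), Myh8 (-1.29) and Myh14 (-2.5), which is outside the sum. Myog stood at 94.3 ± 58.1 CPM (SD, n = 3) in GFP+ myoblasts and at 947 ± 114 CPM (SD, n = 3) in bulk MPC. Of the 41 Z-disc genes, 41 were higher in differentiated cultures than in GFP+ myoblasts, with a median log2 difference of 6.29, while against bulk MPC 4 were higher and 8 lower, with a median of -0.04.

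Cell cycle and lipid genes set the differentiated cultures apart from bulk MPC. Mitosis genes summed to 140.3, 183.4 and 171.8 CPM in the differentiated and to 660.6, 1567 and 825.6 CPM in the bulk MPC libraries, and 40 of 40 were lower in the differentiated cultures (median -3.34). Sterol and fatty acid genes summed to 6194, 6505 and 5605 CPM against 2579, 2502 and 1940 CPM, and 29 of 36 were higher (median 1.33). Scd1 stood at 159 ± 19.4 CPM (SD, n = 3) and Pax7 at 86.5 ± 43.5 CPM (SD, n = 3) in bulk MPC. Respiratory genes were lower in the differentiated cultures (3 of 53 higher, 29 lower, median -0.36), as were genes from creatine and glycogen to lactate (3 of 37 higher, 19 lower, median -0.64), whereas against the growing myoblasts 43 of 53 and 19 of 37 had been higher.

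**Figure D5:**
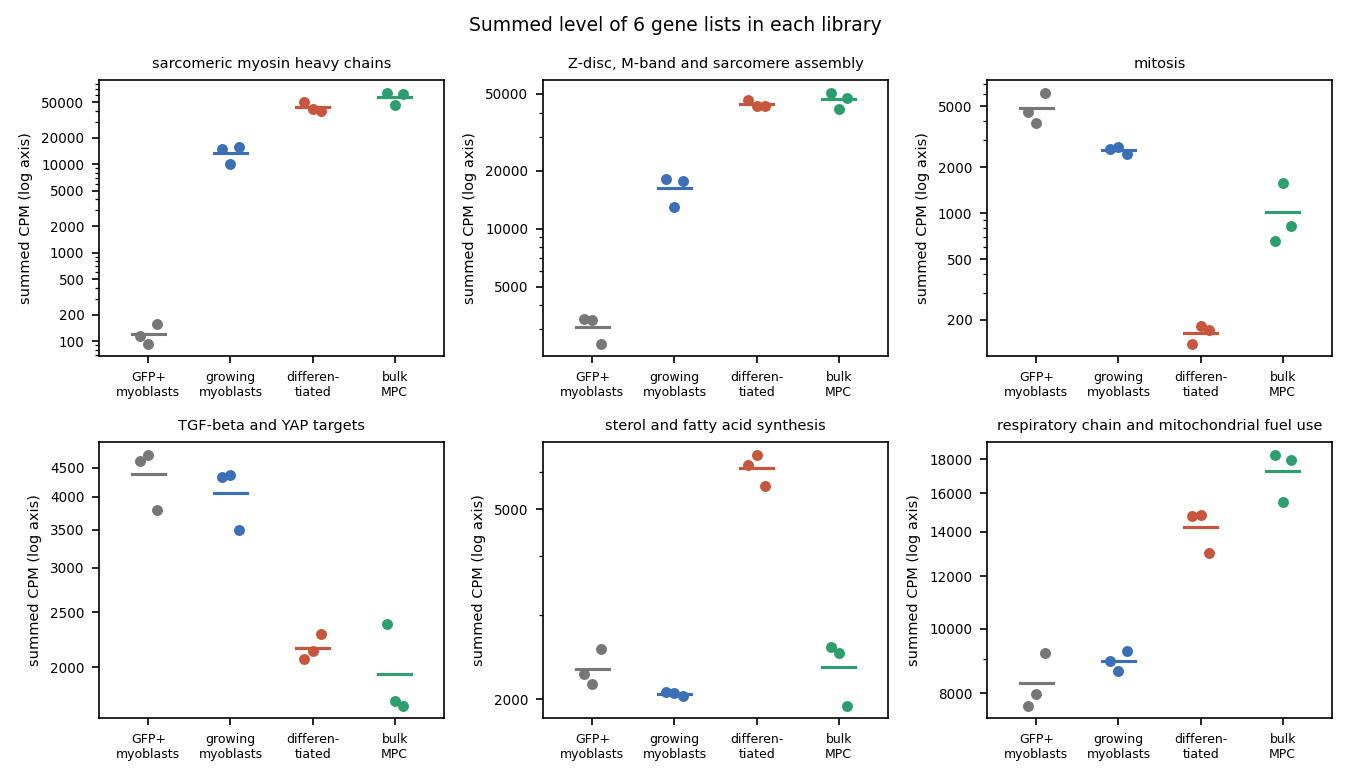
Summed level in CPM (log axis) of 6 gene lists in each library of GFP+ myoblasts, growing myoblasts, differentiated cultures and bulk MPC (3 libraries each, points). Differentiated cultures and bulk MPC lie close together for sarcomeric myosin heavy chain and Z-disc genes, and the differentiated libraries lie lowest for mitosis genes and highest for sterol and fatty acid genes.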

How the data were processed

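Poly(A) RNA was sequenced single-end with a stranded kit, per the labels' protocols. The submitters' processing notes name fastp 0.20.0, kallisto 0.46.1 and GRCm39. Per the file headers, each deposited file lists, for 121798 transcripts, the authors' estimated counts, TPM and effective length. Estimated counts were summed per gene with GENCODE M21 names (1059 transcripts, 0.478% to 1.05% of counts, were not matched) and rounded. edgeR 4.0.16 (TMM, filterByExpr at a minimum count of 10, quasi-likelihood test, R 4.3.3) was fitted to 15 libraries of 5 groups, which share 1 estimate of spread. Adjusted p-values are Benjamini-Hochberg values over all tested genes, with calls at 0.05. Usage was tested with limma 3.58.1 (voom, diffSplice) on transcripts with at least 5% of their gene's counts. Deposited TPM and effective lengths served for levels per length and for alternatives.

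Gene lists, named genes and members were chosen with earlier results of these data known. Named were list members, the 15 largest rises and 15 largest falls among called protein-coding genes (averaging 10 CPM or more in whichever group was higher, same direction in 3 of 3 same-numbered comparisons), the 5 highest genes of each group and genes with switched transcripts; 36 further genes were chosen after their values were seen, and the sarcomeric myosin sum likewise. Scripts were tested on simulated data. The p-values set each difference against the spread between libraries of the same group, estimated over all 15 libraries in the fit. Counting intervals cover counting error only. Some list members counted above are not reported here by name.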

Additional observations from a re-analysis of the deposited data

How the results depend on the processing

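The numbers of genes called and of genes with switched transcripts stayed within 1.5 times of those reported under every alternative run. The 632 genes whose usage differed at the gene level became 418 without differentiated replicate 1, just outside that factor. The members changed more than the totals. Of the 192 genes with switched transcripts, 114 were also called without differentiated replicate 1, 137 with shares of TPM and 178 with transcripts of at least 1% share. Leaving out 1 library gave 6940 to 7912 called genes, DESeq2 called 8650, and without a filter on low counts 27083 genes were tested, with 3340 higher and 4538 lower. With the replicate number as a block, 3854 genes were higher and 4368 lower, and 8093 of these 8222 were also called without it, none in the opposite direction. The block gave 181 genes with switched transcripts. The deviations of same-numbered libraries correlated at 0.087, 0.161 and 0.154, and each differentiated library correlated best with its own number, a hint from the data and not from the design.

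Of 316 called genes described or chosen by the rule, 1 changed sign: Asph, at 0.165 with length-scaled counts. The cause was not tested. Of the genes not called, 16 changed sign under some setting. With total-count scaling, 5 myogenic factors and partners rose in place of 8, 3 IGF and FoxO genes in place of 8, 3 cell cycle inhibitor genes and 3 integrin genes in place of 5, and 0 Notch genes in place of 2. With only the 6 libraries compared, 9 FGF and ERK genes rose in place of 4 and 4 TGF-beta and YAP targets in place of 2. At a minimum count of 50, 2 interferon genes fell in place of 6. The medians of the IGF (0.05) and cell cycle inhibitor (0.03) lists with length-scaled counts, and of the myogenic factor list (0.06) without growing replicate 3, had the other sign. With 3 libraries a group, changes may be missed. This holds for small changes and for larger ones in genes with a wide spread between libraries. Col1a1, with a log2 difference of -2.33, did not pass.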
